A study of Homo sapiens with 92 samples.

Results

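IL1A and IL1B, the genes of interleukin-1 alpha and interleukin-1 beta, are described here in newly made RNA from human cells treated to degrade the cohesin loader NIPBL. They were taken by name from every count file and are 2 of the 48907 genes kept from those files. IL1A and IL1B were chosen by earlier values of these same libraries. These values were the rise of IL1A after release from mitosis in vehicle, and a lower level in drug. The lower level was known for IL1A in the release series and after a 120 min label in the mitosis series. For IL1B it was known at 4 to 8 h. Each of these contrasts is treated as used for both genes. Those contrasts are given below as values with standard errors and without a p-value, as is the course of dTAG in the release series, whose libraries gave that lower level. Tests are given for other contrasts, with a word where they share libraries with the choice.

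Both proteins act through the same receptor, made of IL1R1 and IL1RAP, which recruits MYD88 and IRAK kinases and leads to nuclear NF-kappaB. Interleukin-1 alpha is active as a precursor and works as an alarm signal of epithelial and other barrier cells, whereas interleukin-1 beta needs cleavage, most often by caspase-1, before it is released, and is best known from monocytes and macrophages. Retinal pigment epithelial cells can make both under inflammatory stimulation. NIPBL loads the cohesin complex onto chromatin, where cohesin extrudes loops that bring distant enhancers near promoters. In SLAM-seq, cells take up 4-thiouridine (4sU), chemical conversion turns it into a base read as a different letter, and reads with such T-to-C changes, called converted reads here, mark RNA made during the label.

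The cells were hTERT RPE-1, a telomerase-immortalised retinal pigment epithelial line, in which NIPBL carried an mGreenLantern-P2A-FKBP12(F36V) tag, so that the degrader dTAGV-1 removes the tagged protein. All RPE-1 libraries came from 1 clone, NIPBL-D7, and all DMSO controls carry the tag too. In the mitosis series, cells held by a double thymidine block and then by 20 ng/ml nocodazole received DMSO or dTAGV-1 together with nocodazole for 120 min, mitotic cells were shaken off, and they were released into the same agent. Labelled for 15 min in 100 µM 4sU, its DMSO arm has 3 libraries of mitotic cells (0 min), 3 taken 30 min after release and 4 taken after each of 60, 90 and 120 min. Its dTAG arm has 4, 3, 4, 4 and 3 libraries in the same order, and each arm adds 2 libraries per time for 4, 6 and 8 h. The labels of the release series also give 20 ng/ml nocodazole and 100 µM 4sU. Its agent was given for 30, 60, 90 or 120 min, with a 15 min label and 3 libraries per arm and time. The labels give no time of treatment before release. They do not say how long after shake-off this agent was added, so its times are times on drug or DMSO. Each series also has 3 DMSO and 3 dTAG libraries at 120 min with a 120 min label. Cardiomyocytes and neurons made from WTC11 iNgn2 induced pluripotent stem cells carry the same tag and received DMSO or dTAG for 4 h with a 120 min label, 2 libraries per arm. Their titles and growth protocol name WTC11 while their cell line field says hTERT RPE-1. The labels do not say that replicates were separate cultures, so the p-values measure only the spread between these libraries, which may be technical.

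IL1A (ENSG00000115008) spans 112773915 to 112784590 on chromosome 2 of hg38 and IL1B (ENSG00000125538) spans 112829751 to 112836903, both on the minus strand. Their starts lie 52.313 kb apart. Because both genes differed between the arms in several contrasts, the 250 bases before each RefSeq start are shown, 5′ to 3′ on the minus strand of GRCh38.p14, at chr2:112784494-112784743 for IL1A and chr2:112836780-112837029 for IL1B, with capitals at matches to any of 6 searched motifs.
IL1A: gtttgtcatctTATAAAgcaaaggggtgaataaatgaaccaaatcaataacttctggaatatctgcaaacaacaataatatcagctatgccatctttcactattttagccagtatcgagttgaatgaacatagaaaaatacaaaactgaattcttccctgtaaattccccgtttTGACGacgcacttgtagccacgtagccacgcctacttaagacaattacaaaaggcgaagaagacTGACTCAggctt
IL1B: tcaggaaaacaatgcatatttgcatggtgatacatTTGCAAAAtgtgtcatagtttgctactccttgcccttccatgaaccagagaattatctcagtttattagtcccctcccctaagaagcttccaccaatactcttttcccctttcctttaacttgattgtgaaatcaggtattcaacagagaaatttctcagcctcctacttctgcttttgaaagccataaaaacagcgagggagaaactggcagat
The motifs were searched on both strands. The IL1A window held TATAAA at -239 to -234, the CRE core TGACG at -76 to -72 and the AP-1 pattern TGANTCA at -12 to -6, counted back from the start. The IL1B window held the C/EBP pattern TTGCNNAA at -215 to -208. No searched motif matched in both windows, and neither the kappaB motif nor the TEAD letters GGAATG matched in either. Of 27305 promoters of the same length, 11.1% held TATAAA, 21.7% TGACG, 6.6% TGANTCA, 9.13% TTGCNNAA, 5.05% the kappaB motif and 11.9% GGAATG, and AP-1 and CRE letters do not overlap in the IL1A window. Both windows were poor in G and C, with 37.6% for IL1A and 40% for IL1B against a median of 58%. The files place the start of IL1A 97 bases and that of IL1B 124 bases upstream of the RefSeq start.

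Depth set the precision. Converted reads, in units of 1e6, numbered 0.419 to 6.17 per RPE-1 library with a 15 min label, 6.68 to 35.4 with a 120 min label and 5.62 to 9.84 in the WTC11 cells, from 10.7 to 114 of all reads. Levels are in CPM, a gene's converted reads scaled to 1e6 converted reads of the library, unless all reads are named. No unlabelled library was used here, so the share of converted reads that arises without 4sU is unknown. The RPE-1 libraries with the 15 min label had the keratins KRT8 and KRT18 at median all-read levels of 235 and 209 CPM and the eye-field genes PAX6 at 57.0 and OTX2 at 27.6. The mature pigment epithelium markers RPE65 and BEST1 had medians of 0.0357 and 0.501 CPM. Of the 12 genes in this pigment epithelium list, 7 averaged under 1 CPM. The list did not single out RPE-1: its summed median was 683 CPM there, 1356 in cardiomyocytes and 191 in neurons. KRT8 and KRT18 had medians of 396 and 299 CPM in cardiomyocytes and 39.9 and 21.1 in neurons. OTX2 had 7.19 and 43.05 in the same order, and PAX6 1.37 and 12.4. Of 10 macrophage markers, 9 averaged under 1 CPM in RPE-1, with PTPRC at a median of 0.474, CD14 at 0.0891 and LYZ at 0.0208, and the list summed to 2.94 to 28.0 CPM per library with the 15 min label. In the mitosis series at 120 min that sum was 6.02 to 7.39 CPM in DMSO and 6.63 to 28.0 CPM in dTAG. One DMSO library of the mitosis series, replicate 3 of 120 min, was unlike the rest of its group: it had 0.644 of those units of converted reads, its 10 highest genes took 13.5% of them against 3.44 to 3.75% in the other DMSO libraries of that time, and its NIPBL level was 141 CPM against 307 to 332. These are bulk samples, so fewer cells of a type and less RNA per cell cannot be told apart.

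In vehicle, IL1A RNA went from near the lowest countable level in mitosis to one of the higher levels of the series by 120 min after release, and IL1B rose later and less. In DMSO, IL1A stood at 3.35, 6.10 and 7.33 CPM at 0 min, from only 7, 6 and 8 converted reads. At 30 min it was 7.29, 18.3 and 33.5 CPM, and at 60 min it was 11.3, 29.1, 37.9 and 41.8 CPM. The libraries of 0 and 30 min overlapped slightly, and the 60 min libraries all lay above 0 min. At 90 min IL1A was 52.9, 139, 146 and 205 CPM, and at 120 min it was 129, 172, 201 and 236 CPM. Every library of these times lay above every earlier one, and the 90 and 120 min ranges overlapped. Against 0 min the log2 change was 1.81 ± 0.82 (SE) at 30 min, 2.46 ± 0.74 at 60 min, 4.79 ± 0.69 at 90 min and 5.23 ± 0.68 at 120 min, the last a 37.5-fold rise. Of all genes tested, 0% were called at 30 against 0 min, 35.9% at 60, 24.3% at 90 and 27.8% at 120 min. At 120 min 14.6% were called upwards, and the rise of IL1A itself took part in the choice.

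IL1B in DMSO started higher than IL1A and was slower. It stood at 8.14, 19.3 and 31.2 CPM at 0 min and at 12.6, 27.2 and 40.5 CPM at 30 min. At 60 min it was 9.77, 13.2, 27.1 and 27.1 CPM. These 3 times overlapped fully. IL1B then reached 16.5, 43.6, 46.6 and 56.7 CPM at 90 min and 48.3, 69.4, 83.0 and 86.9 CPM at 120 min, when all 4 libraries lay above those of 0 min. The log2 changes against 0 min were 0.49 ± 0.62, 0.00 ± 0.45, 1.25 ± 0.57 and 2.04 ± 0.56 at 30, 60, 90 and 120 min, the last 4.11-fold. Per kb of gene span, introns included, the mean converted level of IL1A was 0.524 CPM at 0 min against 2.73 for IL1B, and 17.3 against 10.1 at 120 min, so the order of the pair on that scale turned over. It had turned back by 4 h, at 8.07 for IL1A and 11.2 for IL1B.

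**Figure D1:**
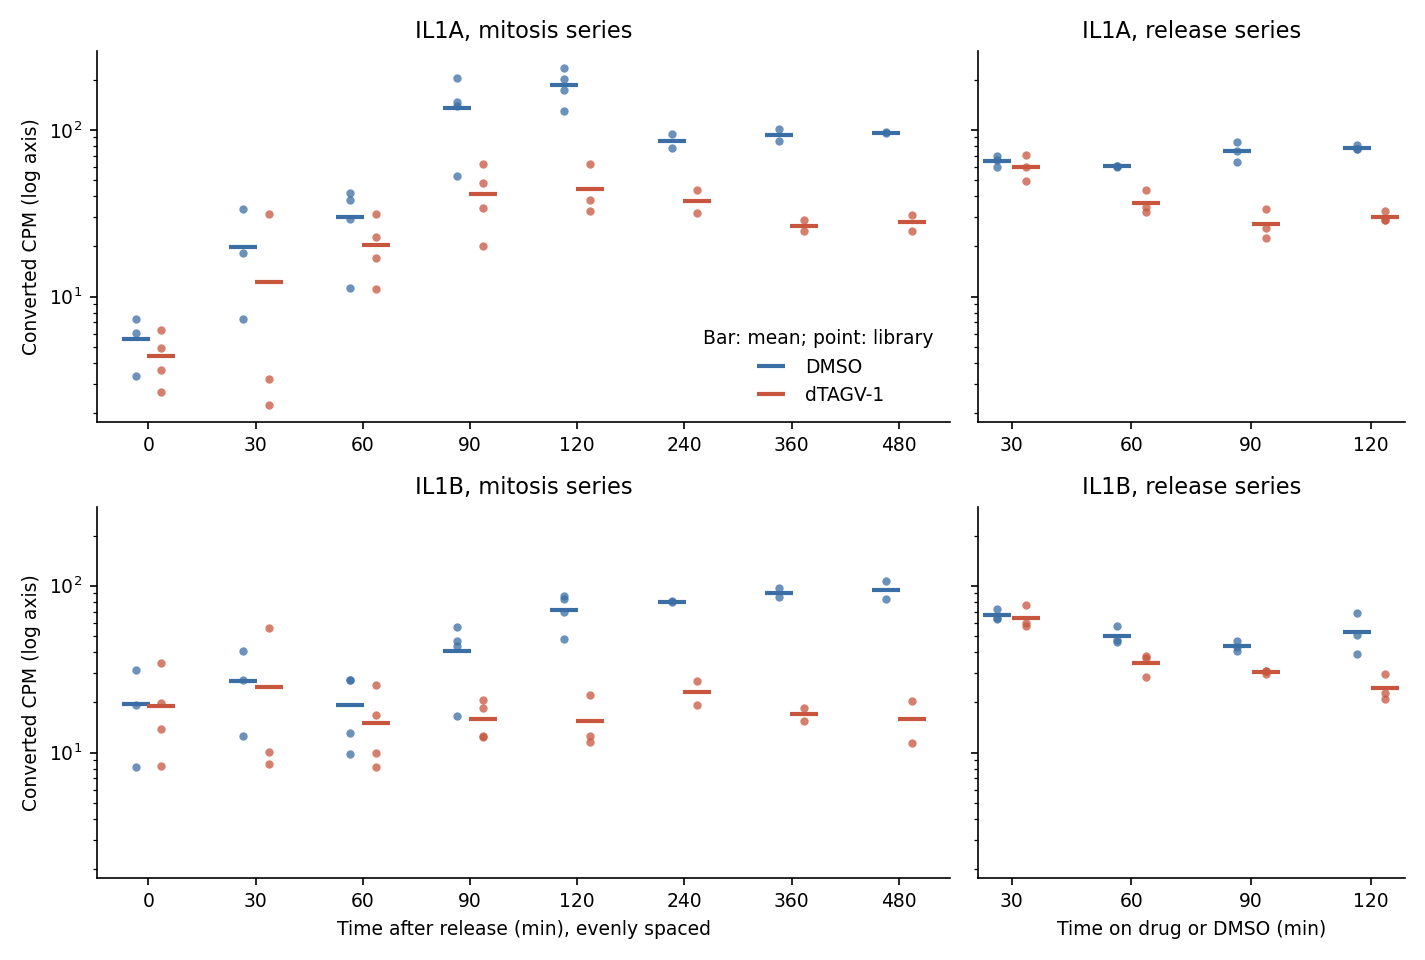
Converted CPM of IL1A and IL1B in each library with a 15 min label (log axis), in DMSO and dTAG, with a bar at each group mean, against time after release in the mitosis series (evenly spaced positions, 4 to 8 h given in min) and against time on drug or DMSO in the release series. IL1A in DMSO climbs from 3.35 to 7.33 CPM at 0 min to 129 to 236 CPM at 120 min. The dTAG libraries of both genes lie below the DMSO libraries with no overlap from 120 min on in the mitosis series. In the release series this holds from 60 min on. How many of all genes lay apart in this way was not counted.

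In dTAGV-1 from mitosis onwards, IL1A still rose after release but stopped lower, and IL1B did not pass the test for a rise at any time. IL1A in dTAG was 2.67, 3.65, 4.94 and 6.35 CPM at 0 min and 2.24, 3.21 and 31.1 CPM at 30 min, where replicate 3 stood alone. It was 11.1, 17.0, 22.6 and 31.3 CPM at 60 min, 20.2, 34.2, 48.2 and 62.3 CPM at 90 min and 32.7, 37.8 and 62.8 CPM at 120 min. From 60 min on every library lay above those of 0 min. Against 0 min in dTAG, edgeR's quasi-likelihood test gave a log2 change of 2.22 ± 0.66 at 60 min (adjusted p = 0.00841), 3.43 ± 0.62 at 90 min (adjusted p = 4.77e-05) and 3.40 ± 0.65 at 120 min (adjusted p = 0.00012), and 1.46 ± 0.78 at 30 min, which did not pass (adjusted p = 1). The share of all genes called in these comparisons was 38.1% at 60 min (23.5% higher), 31.7% at 90 min (19.2% higher), 25.3% at 120 min (14.1% higher) and 0% at 30 min, so such a rise was common among genes. Leaving out 1 library or replicate at a time lifted the adjusted p at 60 min to 0.0551 at most. Over all 11 alternative settings, other processing included, the 60 min call was kept in 9. The adjusted p there reached 0.0963 and the log2 change was 1.09 at its lowest.

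IL1B in dTAG stayed within its mitotic range. It was 8.34, 13.9, 19.8 and 34.4 CPM at 0 min, 8.55, 10.1 and 55.7 CPM at 30 min and 8.21, 10.0, 16.9 and 25.4 CPM at 60 min. At 90 min it was 12.4, 12.5, 18.5 and 20.6 CPM, and at 120 min 11.5, 12.6 and 22.1 CPM. All later libraries but replicate 3 at 30 min, again the high one, and the lowest one at 60 min lay inside the range of 0 min. The log2 changes against 0 min were 0.39 ± 0.55, -0.34 ± 0.52, -0.08 ± 0.51 and -0.27 ± 0.56 at 30, 60, 90 and 120 min, and none passed the test. The sign of these values turned with the processing at 60, 90 and 120 min. It turned with the library or replicate left out at 30, 90 and 120 min.

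Between the arms of the mitosis series, the drug difference of both genes was largest at 120 min among the times from 0 to 120 min. The DMSO and dTAG libraries listed above overlapped for both genes at 0, 30, 60 and 90 min. They were fully apart at 120 min, with dTAG lower, and the share of all genes so apart was not counted. For IL1A the log2 difference, dTAG minus DMSO, was -0.30 ± 0.97 at 0 min, -0.65 ± 0.68 at 30 min, -0.54 ± 0.48 at 60 min, -1.65 ± 0.43 at 90 min (adjusted p = 0.105) and -2.13 ± 0.49 at 120 min (adjusted p = 0.0172), a 4.37-fold lower level. For IL1B it was 0.03 ± 0.59, -0.08 ± 0.58, -0.31 ± 0.50, -1.30 ± 0.48 at 90 min (adjusted p = 0.595) and -2.28 ± 0.54 at 120 min (adjusted p = 0.0225), a 4.86-fold lower level. At 120 min 0.95% of 14208 genes were called, 0.619% as lower and 0.331% as higher, and at 90 min 0.366%. At 0, 30 and 60 min the percentage called was 0, with 355, 195 and 155 genes at an unadjusted p under 0.05. The DMSO libraries of 120 min also gave the rise of IL1A that took part in the choice, so this difference is not wholly independent of the choice. Without 1 library or replicate at a time, the adjusted p at 120 min ranged from 0.00349 to 0.254 for IL1A and from 0.00227 to 0.279 for IL1B.

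Averaged over 30 to 120 min, the log2 difference, dTAG minus DMSO, was -1.24 ± 0.26 for IL1A (adjusted p = 0.00653, 15 DMSO and 14 dTAG libraries) and -0.99 ± 0.26 for IL1B (adjusted p = 0.0483), against 1.27% of genes called and 0.753% called lower. These DMSO libraries also gave the rise of IL1A that took part in the choice. The p-values of the average, like those at 120 min, are therefore not independent of the choice. Without replicate 2 or without replicate 4 the IL1A call was lost, at adjusted p = 0.112 and 0.115. The IL1B call was lost without replicate 1, 2 or 4, at 0.147, 0.165 and 0.357, and without the DMSO library of replicate 3 at 120 min, at 0.0527, while IL1A kept its call without that library at 0.00575. Same-numbered libraries deviated together in this series at 0, 90 and 120 min, and with the replicate number as a block the averages were -1.14 for IL1A (adjusted p = 1.68e-05) and -0.93 for IL1B (adjusted p = 0.000101). The test of whether the drug difference changed over the times gave an unadjusted p of 0.0914 for IL1A and 0.0253 for IL1B, and neither passed after adjustment over all genes (adjusted p = 1.00). That test called 8 genes, 0.0563% of those tested. The NIPBL transcript itself was not lower in drug, at 0.17 ± 0.11 (adjusted p = 0.609), and since dTAGV-1 acts on the protein, this value says nothing about depletion.

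**Figure D2:**
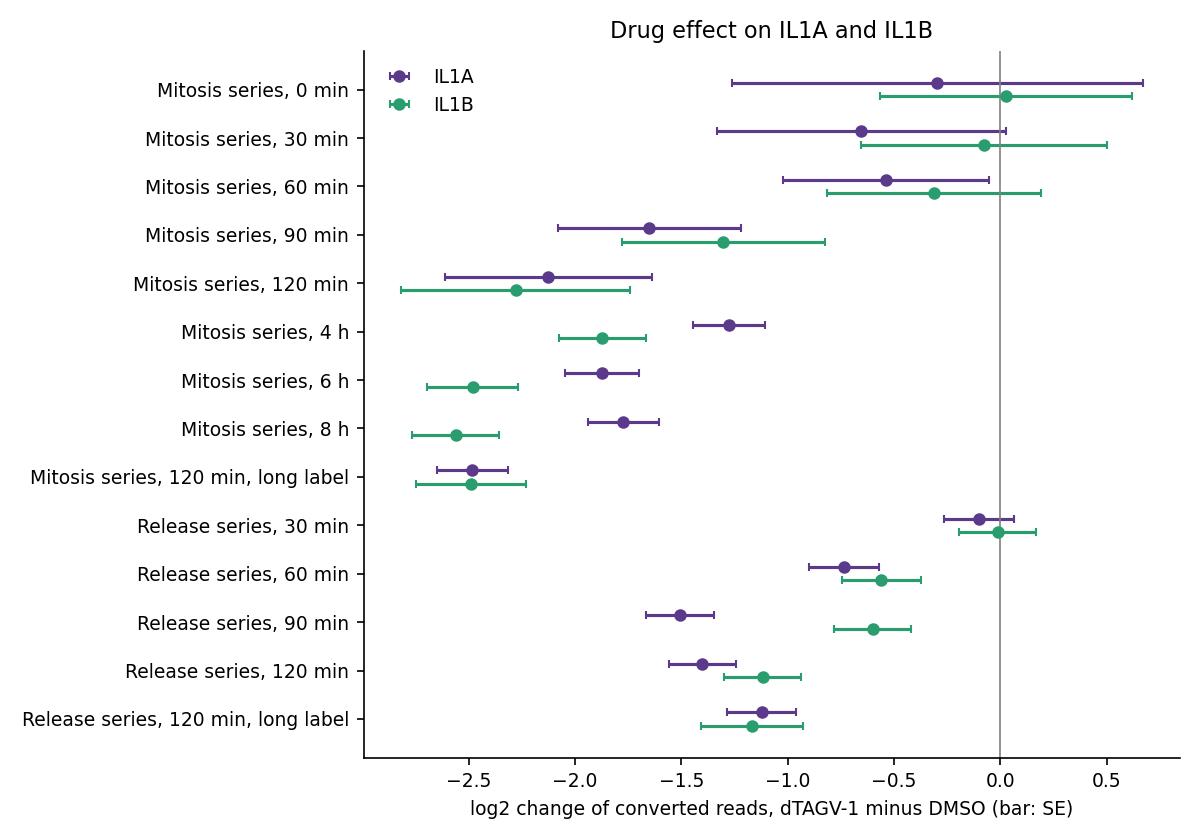
Log2 difference dTAG minus DMSO of IL1A and IL1B with its standard error in each RPE-1 comparison, on converted reads. The values lie between -0.30 and 0.03 at the first time of both series and reach -2.13 and -2.28 at 120 min in the mitosis series.

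Both genes were again lower at 4 to 8 h in every dTAG library than in any DMSO library of the same time. IL1A was 78.1 and 94.1 CPM in DMSO at 4 h against 31.6 and 43.4 in dTAG. At 6 h it was 85.8 and 100.5 against 24.6 and 28.7, and at 8 h 95.35 and 97.3 against 24.8 and 31.0. No dTAG library reached a DMSO library. IL1B was 79.9 and 80.8 CPM in DMSO at 4 h against 19.4 and 27.0 in dTAG, 85.05 and 97.0 against 15.5 and 18.6 at 6 h, and 82.8 and 107 against 11.5 and 20.3 at 8 h. These arms too were fully apart. The share of all genes with arms apart at these times was not counted, so the separation is a description only. The log2 differences at 4, 6 and 8 h were -1.28 ± 0.17, -1.87 ± 0.17 and -1.77 ± 0.17 for IL1A and -1.87 ± 0.21, -2.48 ± 0.21 and -2.56 ± 0.21 for IL1B. The averages were -1.64 ± 0.10 for IL1A and -2.31 ± 0.12 for IL1B, beside 19.8% of 14572 genes called in that comparison and 10.7% called lower. In DMSO, IL1A at 4 to 8 h lay below its 120 min libraries, whereas IL1B overlapped them.

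In the release series both genes were already high in DMSO at the first time. IL1A was 59.4, 65.5 and 69.3 CPM at 30 min, 59.8, 60.3 and 60.8 CPM at 60 min, 63.7, 75.1 and 85.1 CPM at 90 min and 76.4, 77.1 and 80.7 CPM at 120 min. The 120 min libraries lay above those of 30 min by a small margin. Against 30 min the log2 change was -0.12 ± 0.16, 0.23 ± 0.16 and 0.27 ± 0.15 (adjusted p = 0.385 at 120 min), beside 2.18% of 13929 genes called at 120 min. IL1B in DMSO was 63.0, 64.1 and 72.1 CPM at 30 min, 46.0, 47.2 and 57.6 CPM at 60 min, 40.8, 43.0 and 46.6 CPM at 90 min and 38.8, 50.7 and 68.4 CPM at 120 min. Its 60 and 90 min libraries lay below those of 30 min, and the 120 min libraries spread widely. The log2 changes against 30 min were -0.41 ± 0.18, -0.58 ± 0.18 (adjusted p = 0.0845) and -0.34 ± 0.17 (adjusted p = 0.330), none of which passed. The DMSO libraries of this series were also controls in the drug contrast that led to the choice. The p-values of both genes here are therefore not wholly independent of it.

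In dTAG both genes of the release series were lower from 60 min on. IL1A was 49.4, 59.7 and 70.7 CPM at 30 min, 32.3, 34.3 and 43.3 CPM at 60 min, 22.5, 25.9 and 33.4 CPM at 90 min and 28.7, 28.9 and 32.5 CPM at 120 min. IL1B was 57.3, 59.4 and 76.5 CPM at 30 min, 28.4, 36.9 and 38.1 CPM at 60 min, 29.5, 30.7 and 31.0 CPM at 90 min and 20.8, 22.6 and 29.6 CPM at 120 min. Every library from 60 min on lay below every 30 min library for both genes. As a description, the log2 change against 30 min was -0.75 ± 0.17, -1.17 ± 0.17 and -1.03 ± 0.17 for IL1A and -0.95 ± 0.19, -1.17 ± 0.18 and -1.45 ± 0.19 for IL1B at 60, 90 and 120 min. Genes called lower made up 0.144%, 0.754% and 2.37% of those tested at these times. The sizes depended on the scaling: with totals of all reads as library sizes, IL1A was at -0.37, -0.65 and -0.39 and IL1B at -0.57, -0.63 and -0.80, and that scaling moved the median of all genes in dTAG of this series by 0.351 to 0.624. On all reads in place of converted reads, IL1B was at -0.50 at 60 min and -0.70 at 90 min.

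The drug difference in the release series was near 0 at 30 min and larger at the later times. It is given as a description, since these values took part in the choice. At 30 min the arms of both genes overlapped, and at 60, 90 and 120 min they did not. How many of all genes had arms apart at these times was not counted, and the shares called below are a different measure. For IL1A the log2 difference was -0.10 ± 0.16, -0.73 ± 0.16, -1.51 ± 0.16 and -1.40 ± 0.16 at 30, 60, 90 and 120 min, with an average of -0.94 ± 0.08. For IL1B it was -0.01 ± 0.18, -0.56 ± 0.19, -0.60 ± 0.18 and -1.12 ± 0.18, with an average of -0.57 ± 0.09. At 60 min 0.0287% of genes were called, at 90 min 0.495% and at 120 min 1.3%. The average comparison called 2.1% of genes, 1.62% as lower.

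The 2 series began from different levels. In DMSO at 30 min the mean converted level of IL1A was 3.29 times and that of IL1B 2.48 times as high in the release series as in the mitosis series, and the all-read levels were 12.4 and 7.47 times as high. At 120 min the converted ratios were 0.423 for IL1A and 0.732 for IL1B. Genes of mitotic cells, named after their values were seen, also differed at 30 min: CDK1, the mitotic kinase, had an all-read level of 334 ± 4.92 CPM (SD, n = 3) in the mitosis series and 9.93 ± 4.28 in the release series. TOP2A, the topoisomerase of dividing cells, had 1412 ± 13.6 and 111 ± 33.6. At 120 min CDK1 stood at 24.2 ± 10.8 (n = 4) in the mitosis series and 7.61 ± 1.93 in the release series. The part of the time since mitosis in the members' levels was not tested, and series and any batch of handling cannot be told apart.

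The 120 min label, which collects RNA made over the whole 120 min, gave lower levels of both genes in drug in both series. In the mitosis series, IL1A was 183, 224 and 265 CPM in DMSO and 35.8, 44.0 and 47.3 CPM in dTAG, and IL1B was 44.0, 66.8 and 76.8 CPM against 8.30, 10.6 and 17.1 CPM. Neither gene's arms overlapped. The log2 differences were -2.48 ± 0.17 for IL1A and -2.49 ± 0.26 for IL1B, in a comparison with 2.46% of 16573 genes called and 2.05% called lower, and these values took part in the choice. In the release series, IL1A was 91.1, 91.8 and 94.0 CPM in DMSO and 42.5, 44.0 and 48.5 CPM in dTAG. IL1B was 58.6, 64.0 and 72.2 CPM against 23.5, 29.6 and 38.5 CPM. The arms were again fully apart. In edgeR's test IL1A fell here by 1.12 ± 0.16 on the log2 scale, 2.18-fold (adjusted p = 0.00353). IL1B fell by 1.17 ± 0.24, 2.25-fold (adjusted p = 0.0343), beside 0.718% of genes called and 0.646% called lower. These libraries had no part in the choice, but the same drug contrast of this series with the shorter label did. The fit also shared its estimate of spread with the mitosis series libraries of the 120 min label, which took part too. These p-values are therefore not independent of the choice. The IL1A call was lost without replicate 2 (adjusted p = 0.161), and the IL1B call without replicate 1 or replicate 2 (0.504 and 0.435). Whether the drug difference itself differed between the series was not tested.

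The share of a gene's own reads that were converted after 120 min of label rises with the part of its RNA that was made in that time, though a read without a converted base can also come from new RNA. For IL1A it was 74.6, 82.8 and 87.7% in DMSO and 61.7, 75.5 and 86.0% in dTAG in the mitosis series, and 63.9, 66.5 and 67.9% against 62.0, 64.5 and 67.3% in the release series. Both arms overlapped in both series, and all values were far above the mean shares of whole libraries, which were 26.5% and 26.2% in the mitosis series and 33.9% and 32.8% in the release series. For IL1B it was 59.3, 65.4 and 71.7% in DMSO and 40.9, 45.2 and 46.5% in dTAG in the mitosis series, and 45.0, 46.3 and 47.3% against 33.5, 33.6 and 38.5% in the release series. IL1B in drug had the lower share with no overlap in either series. In the release series the difference of means was -1.52 percentage points for IL1A (two-sided exact permutation test, p = 0.6, adjusted over the pair 0.6) and -11.0 points for IL1B (p = 0.1, adjusted 0.2), where 3 against 3 libraries can give no p under 0.1. At 0 min of the mitosis series, after 15 min of label, the mean share of IL1A in DMSO was 3.73% beside 2.77% for whole libraries.

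**Figure D3:**
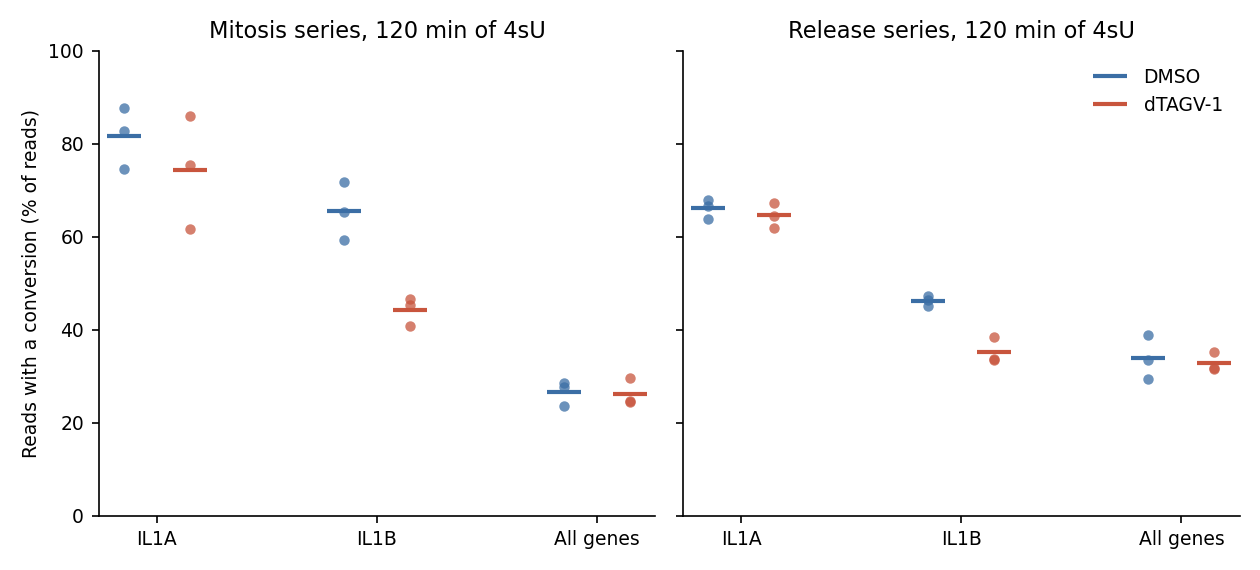
Share of each gene's reads that were converted (percent) in each library with a 120 min label, for IL1A, IL1B and the library as a whole, by series and arm, with group means. IL1A lies between 61.7 and 87.7% with its arms overlapping, and IL1B is lower in dTAG in both series.

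The WTC11-derived cells had almost no RNA of either gene. Summed over 2 libraries, IL1A had 8 converted reads in DMSO and 5 in dTAG cardiomyocytes and 2 and 2 in neurons, out of 16, 8, 11 and 12 reads of any kind. IL1B had 1 converted read in DMSO cardiomyocytes and 0 in the other groups, where a count of 0 allows up to 0.203 CPM in dTAG cardiomyocytes, 0.216 in DMSO neurons and 0.249 in dTAG neurons. These bounds take 3 counts over the group and cover counting error only. Neither gene was tested there. The marker lists gave these sums: cardiomyocyte genes summed to 7495 to 8552 all-read CPM in the cells titled cardiomyocytes against a median of 1.65 in RPE-1 cells, and neuronal genes to 2706 to 3075 in the cells titled neurons against a median of 422. Not every marker followed the sum: SYT1, a synaptic vesicle gene, had a median of 272 CPM in the neurons and 350.3 CPM in the RPE-1 libraries with the 15 min label, and the neuronal tubulin gene TUBB3 had a median of 0.738 CPM in the neurons.

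Across 24 RPE-1 group means, the genes whose converted level followed IL1A and IL1B most closely were different ones for each, down to the fifth place. Likeness was Pearson's r of log2(CPM + 1) over 9768 genes, given as a description, since the groups share controls, libraries and the drug contrast. For IL1A it was highest for WWTR1 at 0.915, a transcriptional coactivator of the Hippo pathway, SEMA7A at 0.909, JAG1 at 0.905, a Notch ligand, TGFBR2 at 0.905, a TGF-beta receptor, and IL1RAP at 0.892, the accessory chain of the interleukin-1 receptor. For IL1B it was highest for MICAL2 at 0.947, ABCA1 at 0.930, a cholesterol exporter, PLAT at 0.923, tissue plasminogen activator, BMP2 at 0.914 and SAMD3 at 0.902. IL1B ranked 82 among the genes most like IL1A, with r = 0.751, and IL1A ranked 87 for IL1B. At 4 to 8 h the log2 drug differences of the IL1A group were -0.82 for WWTR1, -0.66 for SEMA7A, -1.21 for JAG1, -0.79 for TGFBR2 and -0.97 for IL1RAP, smaller in size than the -1.64 of IL1A. Those of the IL1B group were -1.68 for MICAL2, -1.93 for ABCA1, -2.38 for PLAT, -3.35 for BMP2 and -2.38 for SAMD3, which lie on both sides of the -2.31 of IL1B.

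Of the genes around the pair, 0 to 3 were called per RPE-1 comparison. The files place 33 gene starts within 500 kb of the start of IL1A or of IL1B, the pair included. Of the other genes, 15 could be tested in some comparison. In the mitosis series 12 neighbours were tested for the 30 to 120 min average and edgeR's test called 0, beside 1.27% of all genes, 2 of them having an unadjusted p under 0.05, with log2 differences from -0.22 to 0.52 and a median of 0.04. In the release series 11 were tested and 1 was higher, beside 2.1% of all genes called, the antisense gene PAX8-AS1 at 0.31 (adjusted p = 0.0222), and with the 120 min label 0 of 15 were called beside 0.718% of all genes, 1 having an unadjusted p under 0.05. At 4 to 8 h 3 of 10 were called, beside 19.8% of all genes: 2 were lower, POLR1B, a subunit of RNA polymerase I, at -0.42 (adjusted p = 0.000829) and SLC20A1, a phosphate transporter, at -0.38 (adjusted p = 0.000663), and PAX8-AS1 was higher at 0.59 (adjusted p = 5.16e-05). With the 120 min label in the mitosis series, where 2.46% of all genes were called, 1 of 15 was lower, POLR1B at -0.65 (adjusted p = 0.0229). CKAP2L, a mitotic spindle protein gene, starts at -72.226 kb from the IL1B start, beyond IL1A, and its -0.37 at 4 to 8 h did not pass (adjusted p = 0.136), though 8 h alone did at -1.01 (adjusted p = 0.0480). On the other side start the family ligand genes IL37, at 76.068 kb, and IL1RN, at 270.311 kb. IL1RN encodes the receptor antagonist that blocks both interleukins, and its log2 difference was 0.40 in the mitosis series average, 0.32 with the 120 min label there and 0.90 in the release series, none past the test. The strand used in counting is not given in the sources used here, so reads of PAX8-AS1 and of its sense partner cannot be told apart.

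**Figure D4:**
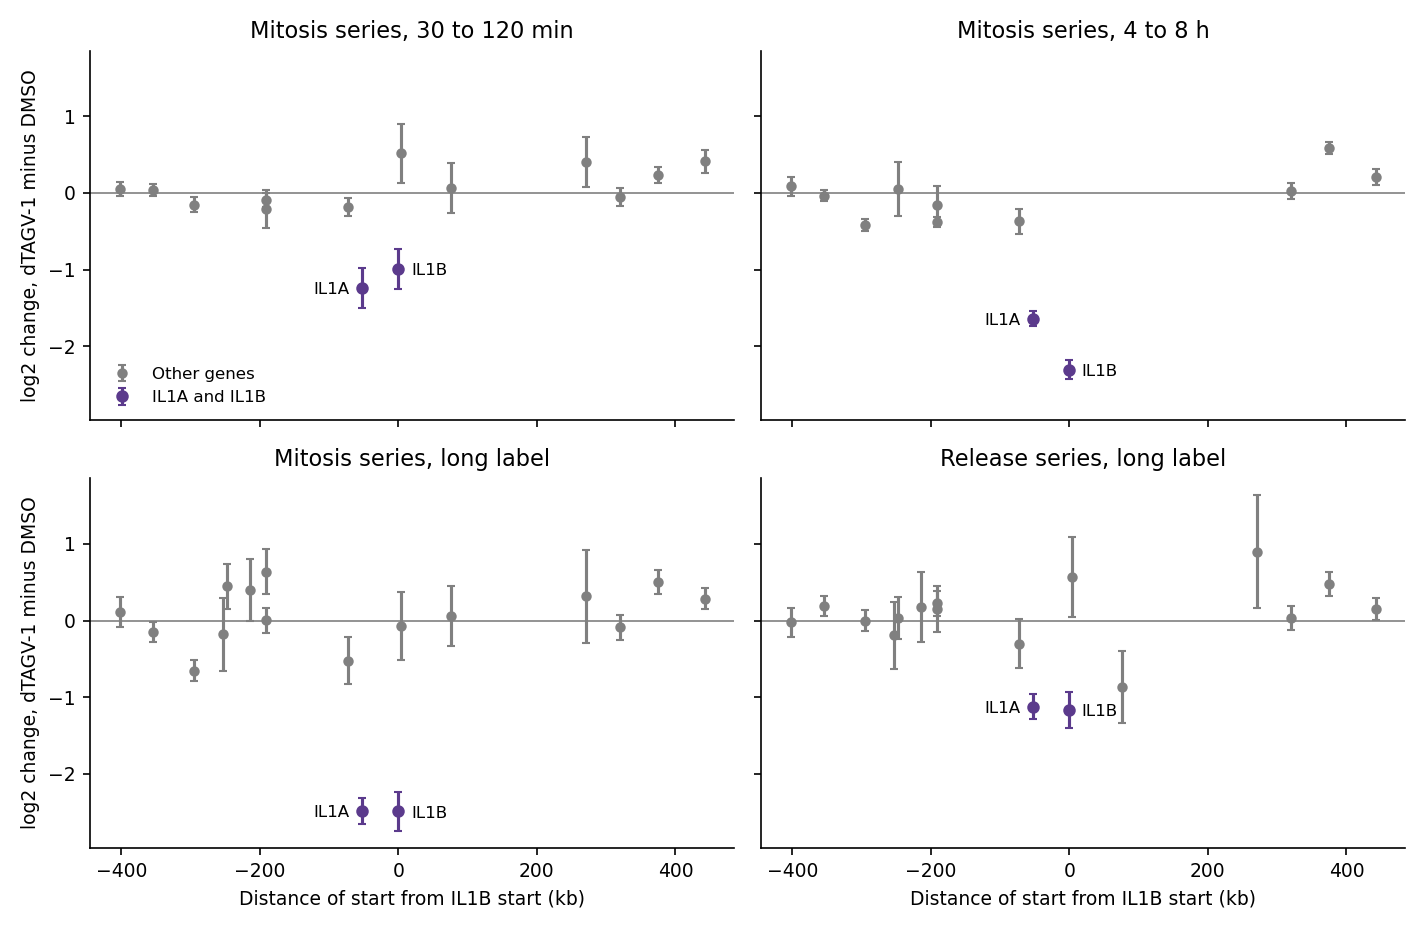
Log2 difference dTAG minus DMSO of genes with a start within 500 kb of the start of IL1A or of IL1B. It is drawn against distance from the IL1B start in kb, in the RPE-1 comparisons, with IL1A and IL1B marked. Neighbours lie between -0.42 and 0.59 at 4 to 8 h, where IL1A is at -1.64 and IL1B at -2.31.

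The rest of the interleukin-1 system was followed through 6 lists, ordered from ligand to response and without the members. To set beside the counts, the shares of all genes called lower and higher were 0.753% and 0.514% in the mitosis series average, 1.62% and 0.481% in the release series average and 10.7% and 9.07% at 4 to 8 h. With the 120 min label they were 2.05% and 0.41% in the mitosis series and 0.646% and 0.0724% in the release series. Of 9 other family ligands, at most 3 had enough reads to test, and 0 passed in any of the 5 RPE-1 comparisons named here. The 1 with an unadjusted p under 0.05 was IL33, an alarm signal of barrier cells, at -1.39 ± 0.38 with the 120 min label of the mitosis series (adjusted p = 0.0811). Their median log2 difference was 0.16 in the mitosis series average beside 0.02 for all genes. Of 10 receptor genes, IL1RAP fell by 0.97 ± 0.09 at 4 to 8 h (adjusted p = 3.41e-07), by 0.45 ± 0.09 in the release series average (adjusted p = 0.00321) and by 1.10 ± 0.22 with the 120 min label in the mitosis series (adjusted p = 0.0131). The release call was lost without replicate 1 or 2 (adjusted p = 0.170 and 0.0660) and the label call likewise (0.0960 and 0.191), while no single library decided the call at 4 to 8 h. In edgeR's test IL1RAP did not pass in the mitosis series average, at -0.35 ± 0.12 (adjusted p = 0.190). Nor did it pass with the 120 min label of the release series, at -0.87 ± 0.22 (0.106). Of tested receptor genes 0 of 5 were called in the mitosis series average, 1 of 4 in the release series average and 1 of 5 at 4 to 8 h. With the 120 min label 1 of 6 was called in the mitosis series, with a list median of -0.33 beside 0.02, and 0 of 6 in the release series. Where 0 were called, 1 had an unadjusted p under 0.05. The signalling chain IL1R1 was low, near 3 to 8 CPM in the group means, and its 0.48 ± 0.22 at 4 to 8 h did not pass (adjusted p = 0.139). Of 16 genes of processing and release, 0 of 10 were called in the mitosis series average, 0 of 11 in the release series average and 0 of 12 with either 120 min label, with 2, 1, 3 and 0 at an unadjusted p under 0.05 in edgeR's test, in the order mitosis average, release average, mitosis label and release label. At 4 to 8 h, where 19.8% of all genes were called, 1 of 10 was lower, IL18BP, which binds interleukin-18, at -0.72 (adjusted p = 0.0441), and 2 were higher, CAPN2, a calpain, at 0.40 (adjusted p = 0.000627) and the inflammatory caspase CASP4 at 0.32 (adjusted p = 0.0118). The call of CAPN2 held without any 1 of the 12 libraries, that of IL18BP was lost without any 1 of 10 of them (adjusted p up to 0.283), and that of CASP4 without the first DMSO library of 8 h (0.0561) or the second dTAG library of 6 h (0.0673).

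Among 17 signalling genes, IRAK2, a kinase-like adaptor of the receptor, was lower in all 5 comparisons. It fell by 0.76 ± 0.16 in the mitosis series average (adjusted p = 0.00517), by 0.89 ± 0.11 in the release series average (adjusted p = 1.36e-05) and by 1.00 ± 0.13 at 4 to 8 h (adjusted p = 3.06e-05). With the 120 min label it fell by 1.42 ± 0.13 in the mitosis series (adjusted p = 4e-05) and by 1.35 ± 0.14 in the release series (adjusted p = 0.0005). MAP3K8, a kinase that links the receptor to ERK, was higher by 1.10 ± 0.21 in the mitosis series average (adjusted p = 0.00179) and by 1.26 ± 0.15 at 4 to 8 h (adjusted p = 8.68e-06). Both calls of the mitosis series average were lost without replicate 2 or replicate 4, at adjusted p = 0.0852 and 0.0754 for IRAK2 and 0.0644 and 0.0706 for MAP3K8, and the IRAK2 call with the 120 min label of the release series without replicate 2 (0.121). At 4 to 8 h 1 of 16 tested signalling genes was lower and 5 were higher, beside 10.7% and 9.07% of all genes, with a median of 0.15 beside 0.01. In the mitosis series average 1 was lower and 1 higher, and in the other 3 comparisons 1 was lower and 0 higher.

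Of 12 NF-kappaB genes, all tested, NFKBIZ, which codes for the nuclear inhibitor-like cofactor IkappaB-zeta, fell by 0.67 ± 0.10 in the release series average (adjusted p = 0.00013) and by 1.36 ± 0.08 at 4 to 8 h (adjusted p = 1.14e-09). With the 120 min label it fell by 0.99 ± 0.12 in the mitosis series (adjusted p = 0.000282) and by 1.25 ± 0.12 in the release series (adjusted p = 0.000348). It was the sole member called lower in those comparisons, and 0 of 12 were called in the mitosis series average, with 4 at an unadjusted p under 0.05. At 4 to 8 h this was 1 of 12, and 2 were higher, beside 10.7% and 9.07% of all genes: the subunit gene NFKB2 at 0.52 (adjusted p = 0.0118) and the inhibitor gene NFKBIA at 0.52 (adjusted p = 0.0359), and the list median was 0.20. The NFKBIZ calls with the 120 min label were lost without replicate 2, at adjusted p = 0.0929 in the mitosis series and 0.116 in the release series. The NFKBIA call was lost without any 1 of 8 of the 12 libraries (adjusted p up to 0.188).

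Of 20 response genes, those that NF-kappaB signalling is known to switch on, the cytokine gene IL6 was lower in all 5 comparisons. Its converted level with the 120 min label in the mitosis series was 37.4 ± 16.3 CPM (SD, n = 3) in DMSO and 4.60 ± 0.625 in dTAG. In the release series it was 40.1 ± 12.2 and 14.9 ± 3.66. The arms did not overlap in either series, and the share of all genes so apart was not counted. The log2 differences were -3.07 ± 0.31 (adjusted p = 6.21e-05) and -1.49 ± 0.28 (adjusted p = 0.0198). It fell by 1.43 ± 0.28 in the mitosis series average (adjusted p = 0.00271), by 0.89 ± 0.13 in the release series average (adjusted p = 0.000172) and by 2.41 ± 0.14 at 4 to 8 h (adjusted p = 8.45e-10). The IL6 call was lost without replicate 1 or 2 in the mitosis series average (adjusted p = 0.0528 and 0.0595) and with the 120 min label of the release series (0.144 and 0.464), and held in the other 3 comparisons. At 4 to 8 h the list was split: 4 of 11 tested genes were lower and 4 higher, with a median of 0.47 beside 0.01 for all genes and 10.7% of genes called lower and 9.07% higher. Lower were IL6, CSF2, a myeloid growth factor gene, at -2.32 ± 0.51 (adjusted p = 0.00313), and PTGS2, the inducible cyclooxygenase, at -0.90 ± 0.15 (adjusted p = 0.000369). Higher were IL11 at 1.60 ± 0.28 (adjusted p = 0.000413) and the neutrophil chemokine gene CXCL8 at 1.42 ± 0.21 (adjusted p = 8.72e-05), and PTGS2 and CXCL8 were named after their values were seen. With the 120 min label 4 of 13 were lower in the mitosis series and 2 of 13 in the release series, and 0 were higher in either. CXCL1, another neutrophil chemokine gene, fell by 2.52 ± 0.40 in the former (adjusted p = 0.00237).

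**Figure D5:**
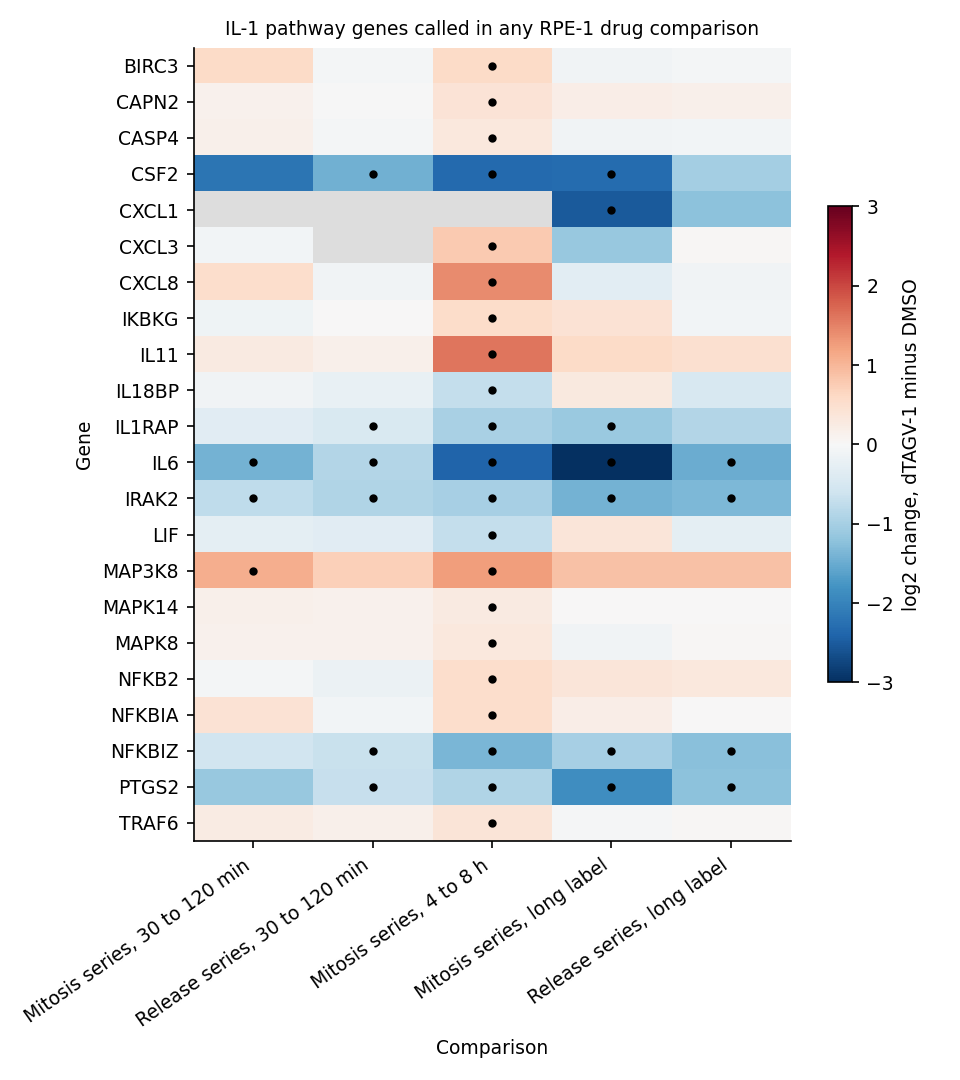
Log2 difference dTAG minus DMSO (colour, limits at -3 and 3) of the 22 list genes called in any of the 5 RPE-1 comparisons (columns). Genes are in alphabetical order, with a black dot where the adjusted p was under 0.05 and grey where a gene was not tested. IRAK2 and IL6 carry a dot in all 5 columns, and the response genes at 4 to 8 h are coloured in both directions.

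The same lists could be read in the WTC11 cells, where the members were near 0. In cardiomyocytes, with 4.83% of 18647 genes called, IL1RAP fell by 1.10 ± 0.19 (adjusted p = 0.00677), NFKBIZ by 0.96 ± 0.19 (adjusted p = 0.0153), PTGS2 by 1.61 ± 0.41 (adjusted p = 0.0482) and VCAM1, an adhesion molecule gene, by 0.93 ± 0.15 (adjusted p = 0.00369). When cardiomyocytes were fitted without the neurons, the adjusted p was 0.0712 for IL1RAP, 0.0968 for NFKBIZ and 0.158 for PTGS2. Without 1 library of 4 at a time, the calls of IL1RAP and VCAM1 held, that of NFKBIZ was lost without the first DMSO library (0.0688) or the second dTAG library (0.0610), and that of PTGS2 without 3 of the 4 (up to 0.349). In neurons, with 2.24% of genes called, 0 list genes passed, and 2 had an unadjusted p under 0.05.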

How the data were processed

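SLAM-seq was measured in 92 libraries of 32 groups. Per the file headers, the authors deposited for each library the count of all reads and of reads with T-to-C conversions per gene, as whole numbers without normalization. A conversion rate, a fraction of T positions, was also deposited by the authors and is not used. HISAT, Picard, HTSeq and hg38 are named in the submitters' processing notes, whose versions, order, strand setting and annotation are not given in the sources used here. Genes of the Y chromosome, XIST and TSIX (279 of 49186) were left out. Depth per library is given in the text, and low counts limit IL1A at 0 min most.

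The members and lists were chosen with earlier results of these data known. Converted counts were tested with edgeR 4.0.16's quasi-likelihood test (R 4.3.3, limma 3.58.1) after TMM scaling, for genes passing filterByExpr (minimum count 10, total 15), with Benjamini-Hochberg adjustment over all genes tested and a threshold of 0.05. Fits were made separately for the mitosis series to 120 min, the release series, 4 to 8 h, the 120 min label and the WTC11 cells, each with all its groups, since the groups then share one estimate of spread. Scripts were tested on simulated data. Named genes were the members, up to 3 called genes per list and comparison by size of change, genes with starts within 500 kb and the 5 most alike genes per member among those averaging at least 10 CPM. Promoters came from RefSeq. Alternatives were other scaling (DESeq2 1.42.0 size factors, all-read totals), all reads, no filter, the DESeq2 test, a replicate block and libraries left out. Comparisons of the 120 min label and of the WTC11 cells were also each fitted with only their own DMSO and dTAG libraries.

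Replicate numbers come from the titles, which do not say what they share. Correlations of same-numbered libraries' deviations from their group means were 0.183 to 0.706 at 0 min, 0.134 to 0.412 at 90 min and 0.339 to 0.435 at 120 min of the mitosis series, 0.208 to 0.814 with its 120 min label, 0.395 to 0.526 at 120 min of the release series and 0.108 to 0.426 with its 120 min label, so the numbers were read as paired there. They were not read as paired at 60 min of the mitosis series, where the lowest value was 0.0471, or in the release series at 30, 60 and 90 min, where it was -0.187, -0.182 and -0.203.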

Additional observations from a re-analysis of the deposited data

Results flagged for a closer look

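IL1B in the dTAG libraries of 90 min in the mitosis series had 1 value far from the rest: 5.33% of its reads were converted in replicate 3, beside 6.57, 6.77 and 6.79% in the other libraries. It was 1 of 36 checks of groups of 4 libraries, of which chance marks about 1 in 20.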

How the results depend on the processing

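For each comparison, 1 choice was changed at a time. A value stayed when it kept its direction and side of the threshold, and a gene count when it was within 1.5 times. For the contrasts that led to the choice, a member's value stayed when it changed by less than the spread between libraries within groups. Of the results that answer a comparison, 192 stayed, 49 moved, 13 lost a call, 1 gained one and 2 changed sign. Of single-gene values 805 stayed, 109 lost a call, 9 gained one, 12 moved and 20 changed sign. The cause of a change was not tested.

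On all reads in place of converted reads, the log2 change in DMSO of the release series against 30 min was -0.25 at 120 min and -0.29 at 90 min for IL1A, a turned sign, and the average drug difference there was -0.60 for IL1A and -0.33 for IL1B. IL1B was at -1.97 with the 120 min label of the mitosis series, at -0.92 (adjusted p = 0.188) in the mitosis series average, at -0.80 (0.573) with the 120 min label of the release series, at -0.058 for drug at 0 min, and in dTAG against 0 min at 0.13, 0.37 and 0.0013 at 60, 90 and 120 min. With totals of all reads as library sizes, DMSO of the release series gave 0.84 for IL1A at 120 min (adjusted p = 0.0149, from libraries that took part in the choice). It gave 0.20 for IL1A at 60 min and 0.21 for IL1B at 120 min. IL1B was then at -0.93 (0.176) in the mitosis series average, -1.11 (0.108) with the 120 min label of the release series, and 0.34, 0.55 and 0.15 in dTAG at 60, 90 and 120 against 0 min. That scaling moved the median of all genes by 0.533 in DMSO of the release series at 120 min and by 0.415 in DMSO of the mitosis series at 120 min. IL1B at 0 min of drug was -0.0029 with DESeq2 size factors and -0.047 with the DESeq2 test. With the replicate block IL1B was 0.086 in dTAG at 120 against 0 min and 0.088 for drug at 30 min, and the release values with the 120 min label were -1.12 for IL1A (adjusted p = 0.00275) and -1.20 for IL1B (0.0311); the block ended no call of a member. The numbers pair 6 of the groups compared, and groups with 2 libraries an arm could not be judged.

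Counts of called genes moved more. For DMSO of the release series at 120 against 30 min, 303 genes (197 higher, 106 lower) became 45 on all reads (14 higher, 31 lower), 3567 with all-read totals (3529 higher, 38 lower), 481 with DESeq2 and 790 with the block. For the mitosis series average, 180 became 51, 111 with all-read totals (58 higher, 53 lower), 359 with no filter (182 higher, 177 lower) and 336 with the block (186 higher, 150 lower). For the release series average, 293 became 82 on all reads, 62 with all-read totals and 495 with the block. For the 120 min label of the mitosis series, 407 became 66 on all reads, 212 with all-read totals, 653 with DESeq2, 790 with no filter and 165 when its arms were fitted alone, and for that of the release series 119 became 23, 50, 258 and 294 in the first 4 of these. For cardiomyocytes 900 became 512 on all reads, 1725 with no filter and 291 fitted alone, and for neurons 417 became 187, 831 and 1213. In cardiomyocytes the replicate numbers correlated at -0.341, and a crossed pairing, chosen after seeing the data, called 1185 genes beside 631 with the numbers as given.

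With 1 replicate or library left out, IL1A ranged from -1.67 to -1.13 in the mitosis series average and from -1.19 to -1.08 with the 120 min label of the release series, and IL1B from -1.25 to -0.90 and from -1.405 to -0.98. In dTAG against 0 min IL1A ranged from -0.31 to 1.92 at 30 min, and IL1B from -0.45 to 0.67 at 30 min, -0.25 to 0.22 at 90 min and -0.62 to 0.20 at 120 min. The drug difference of IL1B ranged from -0.46 to 0.54 at 0 min and from -1.05 to 0.30 at 30 min. Called genes ranged from 2489 to 3856 for DMSO of the mitosis series at 120 against 0 min, 5 to 52 for DMSO of the release series, 57 to 217 and 106 to 224 for the mitosis and release averages, 76 to 263 and 2 to 91 for their 120 min labels, 2268 to 3030 at 4 to 8 h, 621 to 1381 in cardiomyocytes and 133 to 168 in neurons.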
